A study of Mus musculus with 42 samples.

Results

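The cholesterol efflux and liver X receptor genes were 8 of the 21186 genes that the arrays name: Nr1h3, Nr1h2, Abca1, Abcg1, Scarb1, Apoe, Apod and Pltp. Each member was found by its gene symbol in the array annotation, and each had 1 probe, out of 34891 probes with a symbol. Apoe was printed as 10 spots and the other members as single spots. All 8 probes were well above background and none was saturated on all 42 arrays. The value of Apod on 1 yangyinyiqi aorta array came from an irregular spot and was dropped, so that group has 2 aorta values of Apod.

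Liver X receptors are nuclear receptors that bind oxidised cholesterol, pair with a retinoid X receptor and switch on genes that carry cholesterol out of cells. Abca1 and Abcg1 are the membrane pumps that load this cholesterol onto apolipoproteins and high-density lipoprotein, and Scarb1 is the receptor through which that lipoprotein exchanges cholesterol with cells. In the artery wall this route is best known from macrophages, which fill with cholesterol in atherosclerosis.

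The mice were male, and the study's methods give an age of 18 to 20 weeks where they list the mice entered. The age when tissue was taken is not given there. The healthy group (G) was C57BL/6, and the other 6 groups were KK/Ay, a strain that becomes obese and diabetic and carries the yellow agouti allele. The diabetic group (A) received saline. The macroangiopathy group (C) also received saline, after 8 weeks on a high-fat diet with the nitric oxide synthase inhibitor L-NAME at 0.2 mg/ml, which the study used to model large-vessel disease. The SHENQI (B), yangyinyiqi (D), huoxue (E) and rosiglitazone (F) groups went through the same model and then received, by gavage for 8 weeks, the SHENQI herbal compound, the yangyinyiqi or huoxue formula (each a share of its herbs), or rosiglitazone, an agonist of the fat-cell receptor PPAR-gamma. Healthy and diabetic mice were gavaged with saline for the same time. Aorta and skeletal muscle were taken from 3 mice of each group, 1 array a sample. Strain and diabetes cannot be told apart in any comparison with the healthy group.

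Between 20198 and 30274 of 41174 probes were well above background on an array. The arrays lay on 11 slides, and no slide held both healthy and macroangiopathy arrays. Healthy and diabetic muscle arrays shared no slide either. Slide and group cannot be told apart within those comparisons. The array healthy aorta 1 stood apart from its label. The summed signal of its 7 smooth muscle markers was 13.18 on the log2 scale, below the 14.33 of the lowest skeletal muscle array, against 16.80 and 15.81 on the other healthy aorta arrays and 15.73 to 18.14 on the 18 KK/Ay aorta arrays. Des, among these smooth muscle markers, read higher in skeletal muscle, with an aorta minus muscle difference of -4.72. The sums of aorta and muscle arrays therefore do not compare smooth muscle alone. The mean log2 intensity of the 13 macrophage markers on healthy aorta 1, 10.67, was the highest of the 21 aorta arrays. Differences from healthy mice in aorta or over both tissues, and correlations over aorta arrays that include it, are given with and without it, apart from shares over all genes and the comparison within a slide. The 8 skeletal muscle markers summed to at least 19.53 on every muscle array, while on aorta arrays they ranged from 11.43 to 18.59. Healthy muscle 3 had marker means outside the range of the 18 KK/Ay muscle arrays for several lists. They were 10.48 for macrophage (KK/Ay 8.46 to 8.98), 10.14 for smooth muscle (10.66 to 11.20) and 15.89 for skeletal muscle (16.05 to 16.65). The other healthy muscle arrays were also above that macrophage range, at 9.58 and 9.20. Muscle values include healthy muscle 3 unless its removal is named.

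The promoters of Nr1h3 and Abca1 are shown because these members differed between healthy and KK/Ay mice. The RefSeq table of promoter windows (GRCm38.p6) held 9 windows for 6 members and none for Abcg1 or Scarb1. Each sequence below is the 250 bases before the start of the transcript on the minus strand, at chr2:91195117-91195366 for the first of the Nr1h3 windows and chr4:53159896-53160145 for Abca1. Capitals mark the stretch closest, on either strand, to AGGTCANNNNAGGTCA, the direct repeat that liver X receptors are known to bind. The search ran over the 250 bases before and 50 after each start.
Nr1h3 promoter: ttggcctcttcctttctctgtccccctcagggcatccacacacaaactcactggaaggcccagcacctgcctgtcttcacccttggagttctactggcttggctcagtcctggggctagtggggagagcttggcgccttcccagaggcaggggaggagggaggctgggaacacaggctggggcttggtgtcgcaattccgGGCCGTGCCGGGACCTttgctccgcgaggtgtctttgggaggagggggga
Abca1 promoter: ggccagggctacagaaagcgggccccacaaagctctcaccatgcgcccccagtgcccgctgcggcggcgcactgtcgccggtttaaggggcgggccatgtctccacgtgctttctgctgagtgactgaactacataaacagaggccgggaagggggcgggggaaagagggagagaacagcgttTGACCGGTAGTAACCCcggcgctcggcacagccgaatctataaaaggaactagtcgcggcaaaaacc
The Abca1 stretch begins at position -67 from the start and differed from the motif at 3 of 12 compared bases. The Nr1h3 stretch differed at 4. No member window matched within 2 differences. Over 32841 windows of the same length, 3.02% matched within 2 differences, 21.9% within 3 and 76.9% within 4. A match describes the letters and does not show binding.

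The probes of 3 lipid-carrier genes show which stretch of each transcript was read. They are printed 5′ to 3′, and on the mm9 build used by the files they lie at chr7:20281732-20281791 for Apoe, within chr16:31300545-31303530 for Apod and within chr2:164666010-164669966 for Pltp, all on the minus strand. The Apod and Pltp intervals are wider than the 60-base probes.
Apoe probe: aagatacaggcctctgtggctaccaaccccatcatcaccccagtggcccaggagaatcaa
Apod probe: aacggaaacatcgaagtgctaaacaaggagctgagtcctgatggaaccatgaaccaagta
Pltp probe: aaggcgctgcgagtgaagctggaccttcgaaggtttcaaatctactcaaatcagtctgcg
A C57BL/6 and KK/Ay sequence difference under a probe cannot be told apart from a difference in level.

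All values that follow are log2 intensities after background correction and quantile normalization over the 42 arrays. The level of one gene cannot be set against that of another on such arrays, so each member is compared with itself. The test was limma's moderated test over all genes well above background in at least 1 set of arrays compared, with Benjamini-Hochberg adjustment over them, and a gene was called at an adjusted P value below 0.05. The plot of all arrays gives every value.

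**Figure D1:**
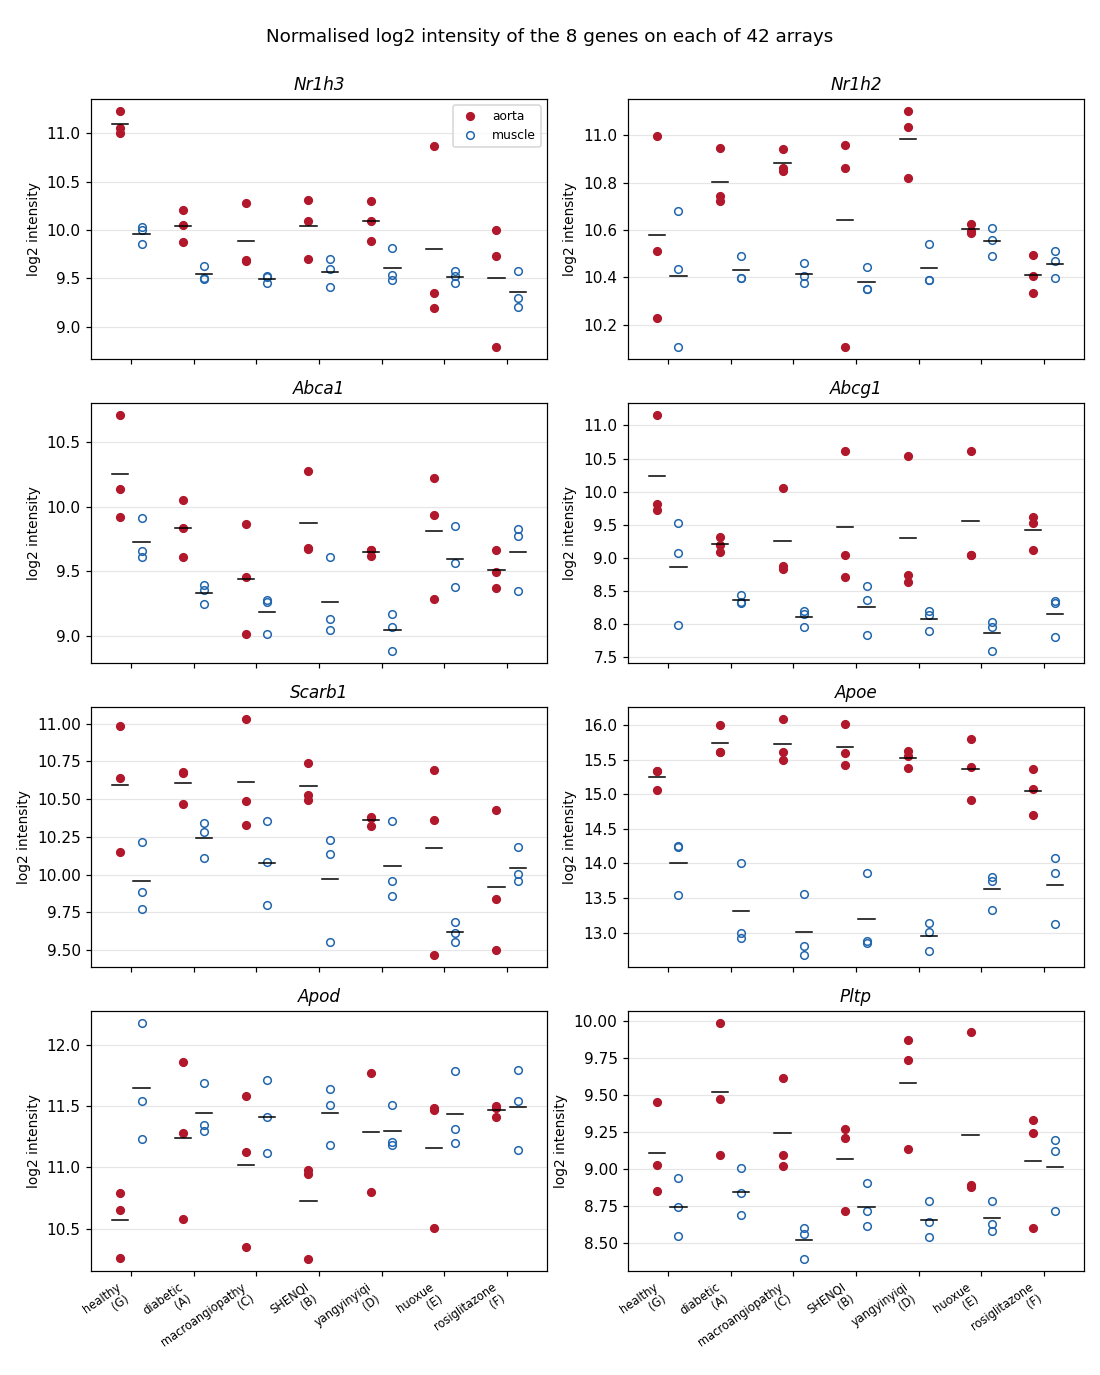
Each panel plots 1 gene: the vertical axis is the normalised log2 intensity, the horizontal axis the 7 groups, filled points the aorta arrays, open points the muscle arrays, and black lines the group means. Healthy Nr1h3 sits above every KK/Ay array in each tissue, and Apoe in aorta sits above Apoe in muscle on every array.

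Nr1h3 encodes LXR-alpha, the liver X receptor of macrophages, liver and fat. In healthy aorta its log2 intensity was 11.06, 11.001 and 11.23. The diabetic arrays read 10.05, 10.20 and 9.88, and the macroangiopathy arrays 10.28, 9.69 and 9.68. Every healthy array was above every diabetic and macroangiopathy array. In aorta Nr1h3 fell by 1.05 (SE 0.14, n = 3 and 3, limma adjusted P value 0.00504) in diabetic mice, to 0.482 of the healthy level. It fell by 1.21 (SE 0.17, n = 3 and 3, limma adjusted P value 0.00542) in macroangiopathy mice, to 0.432 of the healthy level. In bulk tissue, fewer cells of a type and less RNA per cell cannot be told apart. Red cell and fibroblast markers moved with the groups in aorta. The 4 red cell markers summed to 15.96, 17.05 and 17.58 on the log2 scale in healthy aorta and to 17.42 to 18.99 on the 18 KK/Ay aorta arrays, and in macroangiopathy aorta 3 of them were called higher, Alas2 at 2.05, Hbb-b1 at 1.75 and Hba-a1 at 1.65. Without healthy aorta 1 these were 1.74, 1.40 and 1.08 and were still called. The 6 fibroblast markers summed to 12.05, 13.18 and 13.05 in healthy aorta and to 13.41 to 13.98 in KK/Ay aorta, without overlap, and none was called. The 8 skeletal muscle markers summed to 12.18, 15.89 and 18.59 in diabetic aorta, the last being the highest of the aorta arrays. They summed to 12.31 to 16.28 in healthy and 13.48 to 14.83 in macroangiopathy aorta, and none was called. The part of these 3 marker lists in the Nr1h3 values was not tested.

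In muscle the healthy arrays read 10.03, 9.85 and 9.996 for Nr1h3. The diabetic arrays read 9.51, 9.63 and 9.50 and the macroangiopathy arrays 9.53, 9.51 and 9.45. Here too the groups did not overlap, with smaller differences. They were -0.41 (SE 0.14, limma adjusted P value 0.236) for diabetic and -0.46 (SE 0.17, limma adjusted P value 0.254) for macroangiopathy mice. These fits also have 1 spread for both tissues. Each difference had 26 alternatives, muscle alone among them, and none called it. The 9 adipocyte markers summed to 15.63 to 16.80 on the log2 scale in healthy muscle. They summed to 14.67 to 15.13 in diabetic and 14.42 to 15.45 in macroangiopathy muscle, without overlap with healthy muscle. Cfd and Retn were called lower in muscle, at -3.81 and -2.91 in diabetic and -3.85 and -3.51 in macroangiopathy mice. Lep was called higher in diabetic muscle, at 1.74. The part of fat in the members' muscle values was not tested. For Nr1h3 the test of the difference between tissues gave -0.64 (SE 0.20, limma adjusted P value 0.498) and -0.75 (SE 0.24, limma adjusted P value 0.264). With both tissues in 1 fit and tissue as a term, Nr1h3 was lower in diabetic mice, with a log2 difference of -0.73 (SE 0.13, limma adjusted P value 0.0113), and in macroangiopathy mice, with -0.84 (SE 0.16, limma adjusted P value 0.0147). Each fit holds 3 aorta and 3 muscle arrays a group, which may come from the same 3 mice, so it counts arrays and not mice. A replicate block joined same-numbered arrays of both groups within a tissue, so it did not link aorta and muscle of a mouse. With that block the limma adjusted P values of Nr1h3 over both tissues were 0.0648 and 0.086. Without the tissue term they were 0.274 and 0.188, and each setting ended both calls.

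With healthy aorta 1 left out, the aorta differences of Nr1h3 were -1.07 (limma adjusted P value 0.00517) and -1.23 (limma adjusted P value 0.00613), and over both tissues -0.71 (limma adjusted P value 0.0164) and -0.80 (limma adjusted P value 0.0227). The differences between tissues were then -0.66 (limma adjusted P value 0.24) and -0.77 (limma adjusted P value 0.163). On the only slide with both groups, the 1 diabetic aorta array was 1.09 below the mean of 2 healthy arrays, a difference of -1.09. No slide held macroangiopathy and healthy aorta arrays. With replicate number as a block, the adjusted P values in aorta were 0.0762 and 0.0552, and with each tissue fitted alone they were 0.109 and 0.106, and with slide as a fixed block it was 0.0991 in diabetic aorta. These settings ended the call and did not turn the direction.

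Nr1h3 in all 36 KK/Ay arrays was lower than in any healthy array of the same tissue, a pattern singled out after the values were seen. The 18 KK/Ay aorta arrays ran from 8.79 through a median of 9.95 to 10.86, and the 18 muscle arrays from 9.20 through 9.52 to 9.82. Of 16199 genes, 2.44% showed this in aorta, 3.1% in muscle and 0.494% in both tissues. In the fit of all 42 arrays, the mean of the 6 KK/Ay groups minus healthy was -1.20 (SE 0.21, limma adjusted P value 9.19e-05) in aorta and -0.44 (SE 0.21, limma adjusted P value 0.161) in muscle. That fit has 1 spread for both tissues, while the pooled SD of Nr1h3 was 0.47 in aorta and 0.13 in muscle. The muscle P value therefore does not measure the spread within muscle, and the fit was not run on muscle alone. Once healthy aorta 1 was removed, the aorta value was -1.22 (limma adjusted P value 0.00112). Among the 16199 genes of that aorta contrast 25.2% were called and 37.1% had an unadjusted P value below 0.05, where 4 of the 8 members did, and 15.2% of the muscle contrast were called.

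Among the KK/Ay groups Nr1h3 in aorta was lowest with rosiglitazone and highest with yangyinyiqi. From low to high the order of group means was F, E, C, B, A, D, G. Only the step from D to G, 1.0015, exceeded the pooled SD between arrays of 0.47, so the other neighbours in the order did not differ beyond their spread. The lowest array was rosiglitazone aorta 1 at 8.79 and the highest KK/Ay array was huoxue aorta 1 at 10.86. These were also the KK/Ay aorta arrays with the lowest and the highest mean level of the 9 adipocyte markers, 11.36 and 13.71.

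Across the 18 KK/Ay aorta arrays, Pearson's r of Nr1h3 with the mean of the adipocyte markers was 0.91, and with the mean of the 5 brown fat markers 0.70. The arrays share slides and normalization, and the value is a description. The healthy aorta arrays had adipocyte marker means of 12.29, 13.87 and 13.68 against 11.36 to 13.71 for KK/Ay. The array healthy aorta 1 read 11.06 for Nr1h3 at an adipocyte level of 12.29, inside the KK/Ay range. Of the 9 adipocyte markers 1 was called lower and 1 higher in aorta in each comparison with healthy mice. In diabetic aorta Retn, resistin, gave -3.42, and Lep, leptin, gave 2.84. When healthy aorta 1 was dropped, these were -3.84 and 2.71, with 2 adipocyte markers called lower and 1 higher in diabetic and 1 lower and 0 higher in macroangiopathy aorta. Of the 5 brown fat markers 1 was called in aorta in each comparison, Elovl3, at -5.22 in diabetic and -4.76 in macroangiopathy mice. Without that array these were -5.91 and -5.44. The part of fat in the Nr1h3 result was not tested.

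**Figure D2:**
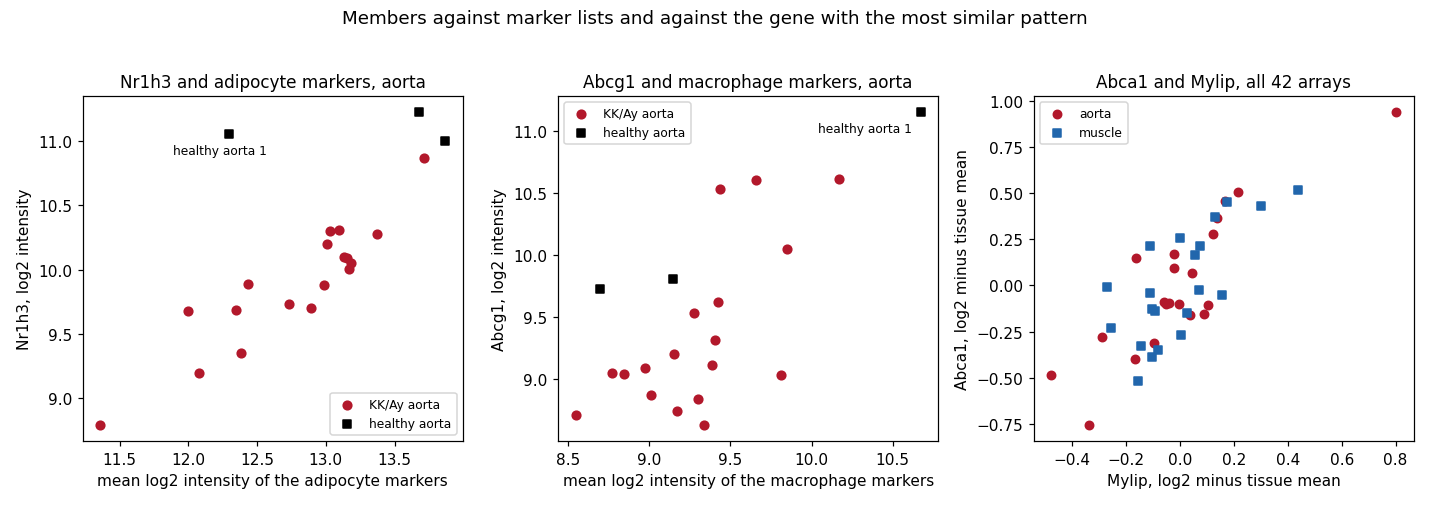
Left, log2 intensity of Nr1h3 against the mean log2 intensity of 9 adipocyte markers on the 21 aorta arrays, with r of 0.91 over the KK/Ay arrays (circles). Centre, the same for Abcg1 and 13 macrophage markers. Right, Abca1 against Mylip on 42 arrays, each minus its tissue mean, with r of 0.81 over all arrays and 0.76 without healthy aorta 1, the point at the top right.

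Nr1h2 encodes LXR-beta, the liver X receptor found in most tissues. In healthy aorta it read 10.23, 10.99 and 10.51, in diabetic aorta 10.95, 10.72 and 10.74, and in macroangiopathy aorta 10.86, 10.85 and 10.94. The groups overlapped. Its log2 differences from healthy aorta were 0.23 (SE 0.21, limma adjusted P value 0.623) and 0.31 (SE 0.20, limma adjusted P value 0.383). Without healthy aorta 1 they were 0.05 and 0.13. In muscle they were 0.02 (SE 0.21) and 0.01 (SE 0.20), with KK/Ay arrays from 10.35 to 10.61 inside the healthy range of 10.11 to 10.68.

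Of the 8 members, Nr1h3 alone was called in diabetic against healthy mice, in the fit of both tissues and in aorta. Over all genes tested 4.49% were called with both tissues and 2.22% in aorta. In macroangiopathy against healthy mice, Nr1h3 and Abca1 were called with both tissues, where 5.16% of genes were, and Nr1h3 alone in aorta, where 6.14% were. No member was called in muscle by limma, against 1.44% and 1.55% of genes. At an unadjusted P value below 0.05, 2 members in muscle of diabetic mice and 3 in muscle of macroangiopathy mice passed, where 12.7% and 13.9% of all genes did. The diabetic and macroangiopathy comparisons share the 6 healthy arrays. Groups without overlap were found for 18.9% of all genes in diabetic and 28% in macroangiopathy aorta, and for 30% and 28.7% in muscle.

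**Figure D3:**
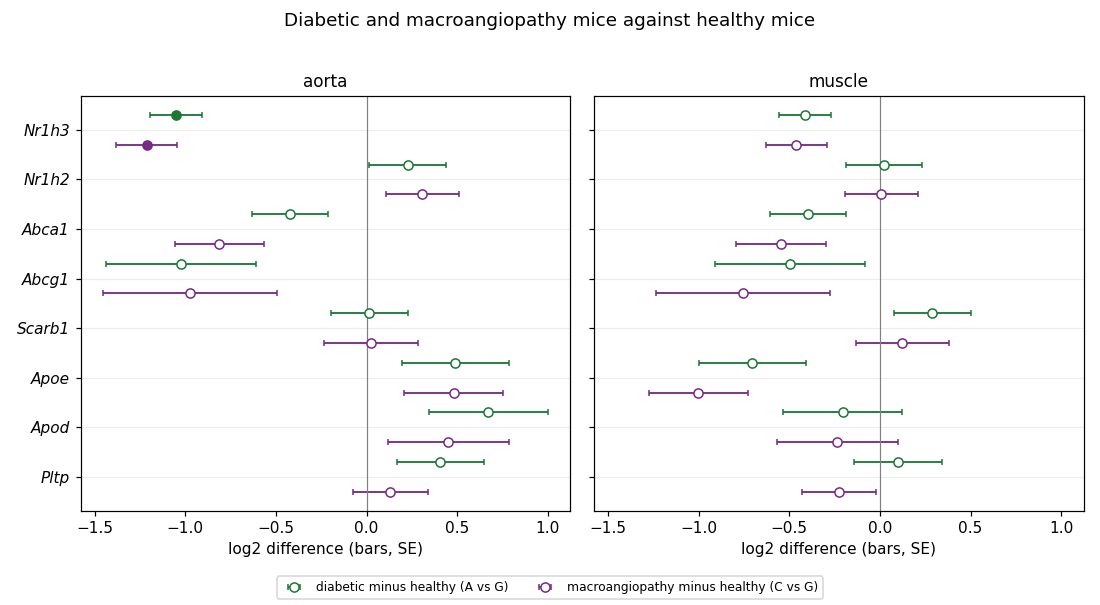
Log2 difference of each gene from healthy mice in diabetic (green) and macroangiopathy mice (purple), aorta on the left and muscle on the right; bars are SE, filled points have a limma adjusted P value below 0.05 and open points do not. Only the 2 Nr1h3 points in aorta are filled, at -1.05 and -1.21.

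Abca1, the pump that passes cholesterol to lipid-poor apolipoprotein A-I, read 10.71, 9.92 and 10.14 in healthy aorta and 9.46, 9.01 and 9.86 in macroangiopathy aorta. In muscle it read 9.66, 9.61 and 9.92 in healthy and 9.26, 9.27 and 9.01 in macroangiopathy mice. The groups did not overlap in either tissue. With both tissues Abca1 fell by 0.68 (SE 0.17, n = 6 and 6 arrays, 3 of each tissue, limma adjusted P value 0.0445) in macroangiopathy mice, to 0.625 of the healthy level. With healthy aorta 1 left out, the difference was -0.56 (limma adjusted P value 0.05001). In 11 of 12 fits that left out 1 array the call was lost, with adjusted P values up to 0.0945, and with replicate number as a block the adjusted P value was 0.102.

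Within 1 tissue Abca1 was not called. The macroangiopathy differences were -0.81 (SE 0.25, limma adjusted P value 0.0756) in aorta and -0.55 (SE 0.25, limma adjusted P value 0.359) in muscle. Once healthy aorta 1 was removed, the aorta value was -0.58 (limma adjusted P value 0.161). In diabetic mice Abca1 read 10.05, 9.61 and 9.84 in aorta and 9.25, 9.39 and 9.36 in muscle, and the difference over both tissues was -0.41 (SE 0.14, limma adjusted P value 0.129), and -0.31 (limma adjusted P value 0.163) without healthy aorta 1. Across all KK/Ay groups, 14 of 18 aorta arrays and 14 of 18 muscle arrays lay below every healthy array. That difference was -0.48 (SE 0.12, limma adjusted P value 0.0032) over both tissues and -0.36 (limma adjusted P value 0.0353) without healthy aorta 1, in a contrast where 30% of genes were called. In aorta alone it was -0.57 (limma adjusted P value 0.0136), and -0.34 (limma adjusted P value 0.253) without that array.

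Abcg1, the pump that loads mature high-density lipoprotein, had the largest pooled SD of the 8 members between aorta arrays, 0.77, while in muscle its 0.37 was below the 0.45 of Apoe. Healthy aorta read 11.16, 9.81 and 9.72 and diabetic aorta 9.20, 9.32 and 9.09, without overlap. Macroangiopathy aorta read 8.84, 8.88 and 10.05. The differences from healthy aorta were -1.03 (SE 0.41, limma adjusted P value 0.235) and -0.97 (SE 0.48, limma adjusted P value 0.246). When healthy aorta 1 was dropped, they were -0.56 (limma adjusted P value 0.516) and -0.51 (limma adjusted P value 0.548). With all KK/Ay groups together Abcg1 was called lower over both tissues, at -0.79 (SE 0.26, limma adjusted P value 0.0191), and the call was lost without healthy aorta 1, at -0.56 (limma adjusted P value 0.14). In aorta alone the values were -0.86 (limma adjusted P value 0.0791) and, without that array, -0.40 (limma adjusted P value 0.585).

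As in macroangiopathy aorta, whose array at 10.05 had a mean of 9.85 for the macrophage markers, 1 aorta array stood well above the others for Abcg1 in 3 treated groups. These were SHENQI at 10.62 beside 8.72 and 9.05, yangyinyiqi at 10.53 beside 8.75 and 8.63, and huoxue at 10.61 beside 9.04 and 9.05. The macrophage marker means on these 3 high arrays were 10.17, 9.44 and 9.66. The array huoxue aorta 1, with 9.04 for Abcg1, had a macrophage mean of 9.81. Across the 21 aorta arrays Pearson's r of Abcg1 with the macrophage marker mean was 0.70, or 0.56 over 20 arrays without healthy aorta 1, and across the 21 muscle arrays 0.85. In muscle, the healthy Abcg1 values 9.07, 7.99 and 9.52 went with macrophage means of 9.58, 9.20 and 10.48. On KK/Ay muscle arrays Abcg1 ran from 7.595 to 8.58 and the macrophage mean from 8.46 to 8.98. The r over 21 muscle arrays therefore also takes in the difference between healthy and KK/Ay mice. Of the 13 macrophage markers, none was called in either tissue, while in muscle 4 and 5 were lower at an unadjusted P value below 0.05 in diabetic and macroangiopathy mice, beside 5.3% over all genes in each. In the fits without healthy aorta 1, whose spread is shared between the tissues, 5 and 4 were called lower in muscle. The part of macrophages in the Abcg1 and Abca1 values was not tested.

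Smooth muscle markers moved against Abca1 in aorta, with Pearson's r of -0.78 over 21 arrays, -0.67 without healthy aorta 1 and -0.61 over the 18 KK/Ay arrays. In macroangiopathy aorta 2 of the 7 markers were called higher, Lmod1 at 2.71 and Smtn at 2.47, and in diabetic aorta none was called and 5 were higher at an unadjusted P value below 0.05, beside 9.99% over all genes. Without healthy aorta 1, whose marker level was low, Lmod1 gave 1.70 and Smtn 1.503, 3 of the 7 were called in macroangiopathy aorta, and 3 were higher at the unadjusted threshold in diabetic aorta. Their part in the Abca1 result was not tested.

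Scarb1, the scavenger receptor for high-density lipoprotein, did not separate healthy from diabetic or macroangiopathy mice. In healthy aorta it read 10.15, 10.99 and 10.64, around the 10.47, 10.68 and 10.67 of diabetic mice. The macroangiopathy aorta arrays read 10.49, 10.33 and 11.03. Its differences were 0.01 (SE 0.21) and 0.02 (SE 0.26) in aorta, turning to -0.21 and -0.20 without healthy aorta 1, and 0.29 (SE 0.21) and 0.12 (SE 0.26) in muscle.

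Apoe, the apolipoprotein that macrophages and liver secrete and that receptors recognise, had higher values in aorta and lower values in muscle in diabetic and macroangiopathy mice than in healthy mice, and neither comparison passed the test. In aorta the healthy arrays read 15.34, 15.07 and 15.34, all below the diabetic arrays at 16.00, 15.62 and 15.61 and the macroangiopathy arrays at 15.49, 15.61 and 16.09. In muscle the healthy arrays read 14.26, 13.55 and 14.23, against 12.9998, 14 and 12.93 in diabetic and 12.80, 13.55 and 12.68 in macroangiopathy mice. The groups did not overlap in aorta and overlapped in muscle.

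The macroangiopathy differences of Apoe were 0.48 (SE 0.27) in aorta and -1.002 (SE 0.27, limma adjusted P value 0.122) in muscle. The difference between these was 1.48 (SE 0.39, limma adjusted P value 0.173), and without healthy aorta 1 it was 1.53 (limma adjusted P value 0.111), with 0.53 in aorta. For diabetic mice they were 0.49 (SE 0.29), or 0.54 without that array, and -0.70 (SE 0.29, limma adjusted P value 0.345). With all KK/Ay groups together, Apoe in muscle was lower by a log2 difference of -0.72 (SE 0.23, limma adjusted P value 0.0313), where 11 of 18 arrays lay below every healthy array. In aorta the value was 0.26 (SE 0.23), with 15 of 18 arrays above every healthy array. The difference between tissues was 0.98 (SE 0.32, limma adjusted P value 0.052). With healthy aorta 1 left out, the aorta value was 0.31 and the difference between tissues 1.02 (limma adjusted P value 0.0614). The muscle call was lost without healthy muscle 1 and without healthy muscle 3, and Pearson's r of Apoe with the adipocyte and macrophage marker means over the 21 muscle arrays was 0.63 and 0.59.

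Apod, a small lipid carrier of the lipocalin family, read 10.79, 10.26 and 10.65 in healthy aorta and 10.58, 11.28 and 11.86 in diabetic aorta. Of 17 KK/Ay aorta values 13 lay above every healthy array, and the difference of all KK/Ay groups was 0.58 (SE 0.25, limma adjusted P value 0.0846), or 0.69 (limma adjusted P value 0.12) without healthy aorta 1. In muscle it was -0.23 (SE 0.25). Pltp, which transfers phospholipid between lipoproteins and is a known target of liver X receptors, read 8.85, 9.46 and 9.03 in healthy and 9.99, 9.48 and 9.10 in diabetic aorta. Its KK/Ay differences were 0.17 (SE 0.19) in aorta, or 0.04 without that array, and -0.00498 (SE 0.19) in muscle. Neither gene passed the test in a comparison with healthy mice.

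L-NAME with the high-fat diet was compared by setting macroangiopathy against diabetic mice. No slide held arrays of both groups, so slide and model cannot be told apart within this comparison. No member was called by limma in either tissue or in both, and none had an unadjusted P value below 0.05. Over all 15741 genes 5 were called in aorta, 0.0318%, and 0 in muscle or with both tissues, with 1219, 453 and 806 genes at an unadjusted P value below 0.05. The members with the smallest unadjusted P values were Pltp, at -0.30 (SE 0.15, limma adjusted P value 0.964) over both tissues, and Abca1, at -0.27 (SE 0.14, limma adjusted P value 0.964).

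SHENQI, yangyinyiqi, huoxue and rosiglitazone were each set against macroangiopathy mice, and the comparisons share the same 6 control arrays. No member was called by limma for any of them in aorta, in muscle or in both. With rosiglitazone 0.0063% of genes were called over both tissues. For SHENQI and yangyinyiqi 0 of 15679 and 0 of 15910 genes were called anywhere, and no member had an unadjusted P value below 0.05. Nr1h3 stayed near the macroangiopathy level of 10.28, 9.69 and 9.68 in aorta with SHENQI, at 10.31, 9.70 and 10.10, and with yangyinyiqi, at 10.09, 9.89 and 10.30. The differences were 0.15 (SE 0.19) and 0.21 (SE 0.17).

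**Figure D4:**
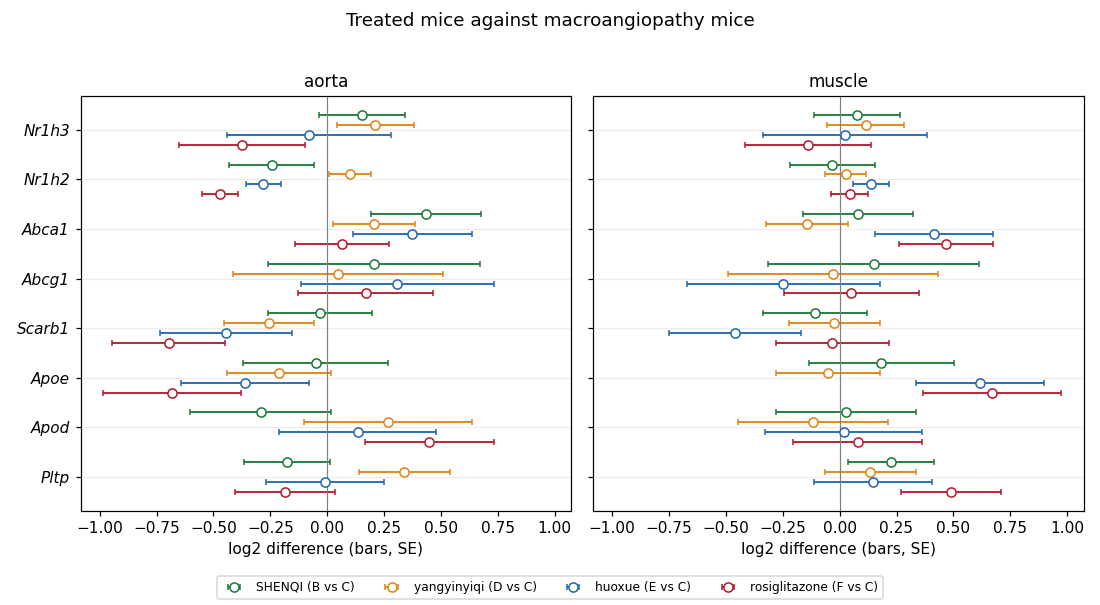
Log2 difference of each gene from macroangiopathy mice in the 4 treated groups, aorta on the left and muscle on the right, with SE as bars. All points are open, since no limma adjusted P value was below 0.05, and Nr1h2 in aorta has the narrowest bars, at -0.28 for huoxue and -0.47 for rosiglitazone.

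With huoxue and rosiglitazone Nr1h2 in aorta did not overlap with its macroangiopathy values of 10.86, 10.85 and 10.94. It read 10.59, 10.63 and 10.60 with huoxue and 10.49, 10.33 and 10.41 with rosiglitazone. The differences were -0.28 (SE 0.08, limma adjusted P value 0.905) and -0.47 (SE 0.08, limma adjusted P value 0.175). In aorta 7.49% of genes with huoxue and 15.3% with rosiglitazone had no overlap with macroangiopathy arrays. In muscle Nr1h2 gave 0.14 and 0.04, and the differences between tissues were -0.42 (limma adjusted P value 0.0733) and -0.52 (limma adjusted P value 0.056). No gene was called in aorta for either treatment, with 748 genes (4.75%) and 1837 genes at an unadjusted P value below 0.05.

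Huoxue and rosiglitazone arrays shared no slide with macroangiopathy arrays of the same tissue, and neither did SHENQI aorta arrays. Slide and treatment cannot be told apart within those comparisons. Apoe read 14.71, 15.36 and 15.08 in rosiglitazone aorta, below all macroangiopathy arrays, a difference of -0.68 (SE 0.30, limma adjusted P value 0.42). Scarb1 read 9.50, 10.43 and 9.84, with overlap, and differed by -0.70 (SE 0.25, limma adjusted P value 0.329). With slide as a fixed block, tied through the other groups on shared slides, these turned to 0.14 and 0.40. Smooth muscle markers in rosiglitazone aorta summed to 16.76 to 17.85 against 17.47 to 17.95 in macroangiopathy aorta, with 3 of 7 lower at an unadjusted P value below 0.05, beside 7.92% over all genes, and none called. Pearson's r of Nr1h2 with their mean was 0.62 over 21 aorta arrays and 0.56 without healthy aorta 1. Their part in the Nr1h2 values was not tested.

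In muscle, rosiglitazone went with higher values of 3 members at an unadjusted P value below 0.05, none past the adjusted threshold. Abca1 read 9.83, 9.35 and 9.77 against 9.26, 9.27 and 9.01, without overlap, a difference of 0.47 (SE 0.21, limma adjusted P value 0.256). Pltp read 9.13, 8.72 and 9.20 against 8.40, 8.56 and 8.61, without overlap, a difference of 0.49 (SE 0.22, limma adjusted P value 0.266). Apoe gave 0.67 (SE 0.30, limma adjusted P value 0.27) and overlapped. At that unadjusted threshold 18.5% of all genes passed in this comparison, so 3 of 8 members is read against that share, and 3.49% of genes were called. Groups without overlap made up 34.7% of genes in rosiglitazone muscle and 46.7% in huoxue muscle.

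With huoxue Abca1 in muscle read 9.85, 9.38 and 9.57, above all macroangiopathy arrays, and over both tissues its difference was 0.39 (SE 0.18, limma adjusted P value 0.34). Scarb1 in muscle read 9.61, 9.55 and 9.69 against 10.09, 10.35 and 9.80, without overlap, and over both tissues differed by -0.45 (SE 0.20, limma adjusted P value 0.327). In muscle alone 10.6% of genes were called with huoxue and no member was. All huoxue muscle arrays lay on 1 slide that held no macroangiopathy array.

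Directly compared, SHENQI and rosiglitazone differed in no member by limma. At an unadjusted P value below 0.05 were Apod in aorta, 10.98, 10.95 and 10.25 with SHENQI against 11.41, 11.49 and 11.51 with rosiglitazone, and Scarb1 in aorta, 10.74, 10.53 and 10.50 against 9.50, 10.43 and 9.84. Neither pair of groups overlapped, as for 10.6% of all genes in this comparison. The SHENQI and rosiglitazone aorta arrays shared no slide. The differences, SHENQI minus rosiglitazone, were -0.74 (SE 0.22, limma adjusted P value 0.35) and 0.67 (SE 0.24, limma adjusted P value 0.434). Of 15568 genes 1 was called in aorta and 1 in muscle, 0.00642% each, while 8.95% had an unadjusted P value below 0.05 in aorta.

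The tissues differed for every member. Over all 42 arrays limma called 7 members higher in aorta and Apod lower, against 76.9% of 16199 genes called in either direction. The largest was Apoe, with aorta arrays from 14.71 to 16.09 and muscle arrays from 12.68 to 14.26, without overlap, as for 9.61% of all genes, a difference of 2.08 (SE 0.11, limma adjusted P value 7.53e-17) or 4.22-fold. Abcg1 was next at 1.25 (SE 0.18, limma adjusted P value 2.39e-07), with aorta arrays from 8.63 to 11.16 and muscle arrays from 7.59 to 9.52. Pltp, Nr1h3, Scarb1, Abca1 and Nr1h2 followed at 0.52, 0.49, 0.41, 0.37 and 0.26, with overlapping arrays. Apod gave -0.39 (SE 0.12, limma adjusted P value 0.00608). When the scanner's own processed signal was used and each array scaled to its 75th percentile, Nr1h2 turned to -0.0107. Fat markers also read higher in aorta, among them Plin1 by 3.88, Adipoq by 3.06 and Ucp1 by 9.78. Cox7a1 of the brown fat list was lower, at -0.64. The part of fat and of other cell types in the tissue differences was not tested.

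The aorta minus muscle difference of Apoe was 1.24 in healthy mice, 1.19 without healthy aorta 1, and reached 2.72 in macroangiopathy mice. That of Nr1h3 was 1.14 in healthy mice, 1.16 without that array, and lay between 0.15 and 0.50 in the KK/Ay groups. Apod was lower in aorta in all 7 groups, by -1.08 in healthy mice (-1.19 without healthy aorta 1) and by -0.01 with yangyinyiqi. Abca1, Nr1h2 and Scarb1 were higher in aorta in 6 of 7 groups, rosiglitazone being the exception for each.

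**Figure D5:**
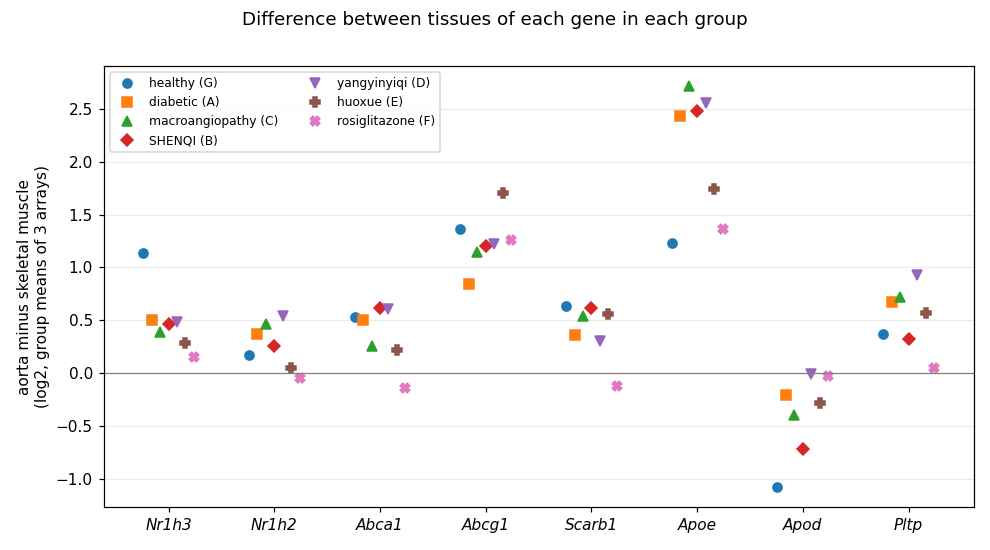
Aorta minus skeletal muscle, as the log2 difference of group means of 3 arrays (2 for yangyinyiqi aorta Apod), for each gene on the horizontal axis and each group by symbol. Apoe lies between 1.24 and 2.72, Abcg1 between 0.84 and 1.70, and healthy Nr1h3 stands at 1.14 above the KK/Ay groups.

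Retinoid X receptors, the partners of liver X receptors, and 7 coregulators showed no call against healthy mice. All 10 genes of that list were tested, and in each comparison with healthy mice 0 were called by limma, with 1 in diabetic and 3 in macroangiopathy mice at an unadjusted P value below 0.05 over both tissues, beside 22% and 24.2% over all genes. Once healthy aorta 1 was removed, again 0 were called, with 1 and 2 at the unadjusted threshold. The exception in the treated groups was Rxra, which fell by 0.62 (SE 0.12, limma adjusted P value 0.012) in muscle with huoxue. In that comparison 10.6% of all genes were called, and its groups shared no slide. Between tissues 8 of the 10 were called lower in aorta and none higher, where 36.5% of all genes were called lower and 76.9% in either direction, with Rxrg at -2.69 and Rxra at -0.72.

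Of 13 other liver X receptor target genes, 10 were tested against healthy mice. In aorta Lpcat3, which remodels membrane phospholipids, fell by 1.36 (SE 0.24, limma adjusted P value 0.0182) in diabetic mice and fell by 1.49 (SE 0.19, limma adjusted P value 0.00389) in macroangiopathy mice. Mertk, a receptor for the uptake of dead cells, rose by 0.75 (SE 0.16, limma adjusted P value 0.0291) in macroangiopathy aorta. When healthy aorta 1 was dropped, Lpcat3 gave -1.59 (limma adjusted P value 0.00342) and -1.73 (limma adjusted P value 0.000259), and Mertk 0.76 (limma adjusted P value 0.0362). Over both tissues the median difference of the list was -0.34 in diabetic and -0.39 in macroangiopathy mice, against 0.03 for all genes in each. At an unadjusted P value below 0.05, 4 of 10 were lower in each, beside 9.3% and 9.52% over all genes. Without healthy aorta 1 the medians were -0.21 and -0.22, and 3 of 10 were lower in each. Srebf1, the driver of fatty acid synthesis, gave 0.58 (limma adjusted P value 0.153) and 0.12 (limma adjusted P value 0.769), and without that array 0.42 and -0.03. In the treated comparisons no gene of this list was called.

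Among 16 genes of cellular cholesterol handling, 15 were tested. Npc2, which moves cholesterol out of lysosomes, fell by 1.17 (SE 0.21, limma adjusted P value 0.0204) in diabetic aorta and fell by 1.14 (SE 0.23, limma adjusted P value 0.01995) in macroangiopathy aorta. Ch25h, which makes 25-hydroxycholesterol, a ligand of liver X receptors, was lower over both tissues at -1.02 (limma adjusted P value 0.0248) and -0.97 (limma adjusted P value 0.0444). Abcg4, a pump related to Abcg1, was higher at 0.88 (limma adjusted P value 0.0402) and 0.96 (limma adjusted P value 0.0457). Stard5, a cholesterol-binding protein, fell by 0.81 (SE 0.21, limma adjusted P value 0.0459) in macroangiopathy aorta. With healthy aorta 1 left out, the calls of Npc2 and Abcg4 and of Ch25h in diabetic mice held, while Stard5, at -0.57 (limma adjusted P value 0.0628), and Ch25h in macroangiopathy mice, at -0.81 (limma adjusted P value 0.0543), were not called. The median of the list was -0.06 and -0.08 over both tissues, or -0.05 and -0.03 without that array. Of 14 genes of high-density lipoprotein and its relatives, 6 or 7 were tested against healthy mice and 0 were called by limma, with 1 at an unadjusted P value below 0.05 over both tissues in each comparison, both with and without healthy aorta 1. Vldlr fell by 0.91 (SE 0.20, limma adjusted P value 0.0197) in muscle with huoxue, where 10.6% of all genes were called.

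The genes whose pattern was most like each member were found by Pearson's r over the 42 arrays after subtracting the mean of each tissue, among 16198 genes. Abca1 was most like Mylip, an E3 ligase that degrades the low-density lipoprotein receptor and itself a known target of liver X receptors, with r of 0.81, and Zzef1, with 0.78. Once healthy aorta 1 was removed, these were 0.76 and 0.74. Mylip itself was not called over both tissues, at -0.24 (limma adjusted P value 0.39) in diabetic and -0.34 (limma adjusted P value 0.208) in macroangiopathy mice, and at -0.12 and -0.21 without that array.

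Abcg1 was most like Samhd1 and Nkg7, each with r of 0.90. Nkg7 is a gene of natural killer and cytotoxic T cells. Nr1h3 was most like Aldh1l1 with 0.88 and Lonp1 with 0.85, Nr1h2 like Gmppa with 0.85 and Ehbp1l1 with 0.83. The closest gene of each other member had r from 0.64 for Scarb1 with Phrf1 to 0.79 for Apoe with Gm12854. When healthy aorta 1 was dropped, these pairs gave 0.63 and 0.79, Abcg1 gave 0.87 with both its genes, Nr1h3 gave 0.86 and 0.83 and Nr1h2 gave 0.83 and 0.81. Among the members, the highest r was that of Abca1 with Abcg1, 0.56 over 42 arrays, while without healthy aorta 1 that pair had 0.45 and the highest was Abca1 with Apoe, 0.62. In muscle the highest was Abca1 with Apoe, 0.85 over 21 arrays. Nr1h3 and Nr1h2, the 2 receptors, had 0.06. These values are descriptions, since the arrays share slides, groups and normalization.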

How the data were processed

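Total RNA was read on single-colour Agilent mouse arrays, 1 array a sample. Per the file headers, spots were measured with Feature Extraction 10.7.3.1 (Agilent Feature Extraction 10.7 in the submitters' processing notes), and the deposited scanner files hold the intensity of each spot and its background, with marks for irregular, saturated and well-measured spots. A table of log2 values from the authors, for these same arrays, served as an alternative. The study's methods name background correction and quantile normalization with limma and a filter on control and weak probes. The settings of these steps are not given in the sources used here.

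Median intensities were background-corrected (normexp, offset 0) and quantile-normalized over 42 arrays with limma 3.58.1 in R 4.3.3. Irregular spots were dropped, spots of a probe and probes of a gene averaged. Of 41174 probes, 34891 carried a symbol, giving 21186 genes. A gene was tested if it had a probe that every array of 1 or more of the sets compared put well above background. Each comparison of 2 groups used its 12 arrays, with tissue as a term or 4 means. The number of arrays, 3 a group and tissue, limits the precision, and P values measure only the spread between arrays. Whether aorta and muscle came from the same mice is not given in the sources used here. Alternatives covered background correction, scaling, filter, probe choice, slide, replicate block, leave-one-out and the unadjusted P value below 0.05 of the study's methods. The code was tested on simulated data. The fit of all KK/Ay groups against healthy mice, and the fits and correlations without healthy aorta 1 beyond the planned ones, were added after the values were seen.

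All members, other pathway lists and marker lists were chosen with earlier results of these data known. All 8 members are named. Of the other lists, genes with an adjusted P value below 0.05 are named, at most 5 a comparison and list, and for each member the 2 most similar genes. Srebf1 and Mylip, which did not pass, were given values after these were seen. Promoters are RefSeq windows of GRCm38.p6.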

Additional observations from a re-analysis of the deposited data

How the results depend on the processing

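The alternatives were run on the members' differences from another group and on aorta minus muscle, where the unadjusted P value was below 0.05, and not on the other gene lists or on how far a difference varied between tissues. Their sign held under every alternative run, with 3 exceptions. With slide as a fixed block, rosiglitazone minus macroangiopathy in aorta turned to 0.14 for Apoe and 0.40 for Scarb1, and with each array's processed signal divided by its 75th percentile the aorta minus muscle difference of Nr1h2 turned to -0.0107. That scaling moved the median of all genes by up to 0.17, in diabetic against healthy muscle. The number of members called was as follows. Diabetic against healthy, 1 with both tissues and 1 in aorta, became 0 with both tissues without the tissue term or with the replicate block, and 0 in aorta with each tissue alone, with slide as a fixed block or with the replicate block. Macroangiopathy against healthy, 2 with both tissues, became 1 with the processed signal, the authors' table or no filter, and 0 without the tissue term or with the replicate block. In aorta its 1 became 0 with each tissue alone or with the replicate block, and 2 with all 42 arrays or slide as a random block. In muscle its 0 became 1, Apoe, with all 42 arrays, with or without healthy aorta 1, and with slide as a random block. Huoxue against macroangiopathy in muscle went from 0 to 1, Scarb1, with each tissue alone. The KK/Ay groups against healthy in muscle went from 1 to 0 with the processed signal.

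At an unadjusted P value below 0.05 the members were 3, 2 and 2 for diabetic and 3, 2 and 3 for macroangiopathy against healthy (both tissues, aorta, muscle), 2, 1 and 0 for huoxue, 1, 3 and 3 for rosiglitazone, and 2 in aorta for SHENQI against rosiglitazone, and 4 in aorta and 3 in muscle for all KK/Ay groups. The shares of all genes were 22%, 16.9% and 12.7%, then 24.2%, 24.2% and 13.9%, then 14.3%, 4.75% and 25.4% for huoxue, 12%, 11.6% and 18.5% for rosiglitazone, 8.95%, and 37.1% and 28.1%. Leaving out 1 array gave 1 to 2 members for diabetic against healthy with both tissues, 1 to 2 for macroangiopathy with both tissues and 1 to 2 in aorta. For all KK/Ay groups, leaving out 1 healthy array gave 1 to 3 in aorta (1 without healthy aorta 1 and 3 without healthy aorta 2), 0 to 1 in muscle and 2 to 3 with both tissues. The 2 in macroangiopathy aorta came without healthy aorta 2, and the 2 in diabetic mice without healthy muscle 2. All 8 members stayed called between tissues under each setting except Nr1h2 with the processed signal and Apod with quantile normalization within each tissue. Slide as a fixed block was run only where slides link the groups, the fit without the tissue term only over both tissues, and each tissue alone only within a tissue. The 48 same-numbered pairs each joined arrays of the same tissue from the groups compared. Of these, 13 had deviations from the group means that correlated above 0.1, and r ran from -0.54 to 0.60. Aorta and muscle arrays of the same number were not set against each other, so whether they share a mouse was not tested. The slide block of the random fit had a consensus correlation of 0.159. All members had probes well above background, so low signal did not limit these values.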
